A study of Drosophila melanogaster with 50 samples.

Results

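The genes described here were grouped by name as digestive endopeptidase genes of the fly gut. These were the Jonah genes, the trypsin genes and 4 genes named Ser (Ser6, Ser7, Ser8 and Ser12). They were taken by symbol from the annotation of the array, as every probe set whose only gene symbol was a Jonah symbol, ended in Try or was 1 of the 4 Ser symbols. This gave 26 genes among the 11982 genes with a probe set of their own, namely 9 trypsin genes, 13 Jonah genes and 4 Ser genes. Each of the 26 stood on a single probe set, so no choice between probe sets was needed. The rule used symbols only, but it was chosen with earlier results of these data known.

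Digestive serine endopeptidases of these families are made by enterocytes of the midgut and secreted into its lumen. There they cut dietary protein for uptake by carboxypeptidases, aminopeptidases and transporters. Trypsins cut after lysine and arginine, whereas the Jonah proteins belong to the chymotrypsin and elastase-like side of the same superfamily. Most of the genes arose by tandem duplication and lie in clusters, and their transcripts are among the most abundant of the fed adult gut. Ser7 differs from the rest in carrying a clip domain, as proteases of haemolymph cascades do. Whole flies were measured, so the tissue that made the transcripts of each gene is not known here.

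Adult Oregon R flies, a wild-type laboratory strain, had been kept in facilities that alter gravity on the ground, and RNA of whole flies was hybridised to 50 Affymetrix arrays. All groups shared the strain and the array type. The random positioning machine (RPM), which keeps turning the sample so that the pull of gravity averages out, gave flies of 5 d at 14C. Its arrays labelled females numbered 3 at 0g and 3 at 1g outside the machine, and those labelled males 4 at 0g and 3 outside. The magnetic levitator gave females of 5 d, with 3 arrays for each of the 0g*, 1g* and 2g* positions in the bore at 14C, where the asterisk marks a strong field beside the effective gravity, and controls away from the field on 2 arrays at 14C and 3 at 24C. Separate magnet runs lasted 80 h and likewise used females of 5 d, on 2 arrays per field position (0g* and 1g*) at 14C and on 3 control arrays at 24C. Females of 5 d and of 20 d came from a large diameter centrifuge (LDC) at 22C, and for each age 4 arrays were run at 2g, 2 for the rotational control (1g-rot) and 2 for controls kept beside the centrifuge. Titles call the replicates biological but do not say whether they came from separate cultures, so p values measure the spread between these arrays. Levels are log2 intensities, differences are log2 differences of group means with their SE, and a probe set passed the test at an adjusted p under 0.05 in limma, adjusted over 18769 probe sets. Levels of different probe sets cannot be set against each other.

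Several facts of the series touch these genes. Transcripts made in 1 sex ran opposite to the RPM labels, in that the median of accessory gland genes was 11.03 to 12.09 where the label was females (6 arrays) and 3.72 to 6.85 where it was males (7 arrays). Over the 50 arrays, 6 held transcripts of both sexes. Of 12 gut cell markers 11 stood above the background of plant control probe sets in every group, and only grn did not. For replicate 1 of the 24C controls of the magnet, title (24C) and characteristics (14C) disagree, and the title was followed.

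The trypsin genes lay together on chromosome arm 2R, in the order lambdaTry, kappaTry, zetaTry, etaTry, thetaTry, alphaTry, epsilonTry and betaTry with 0 other protein-coding genes between neighbours, followed after 5 genes by iotaTry. Jon25Biii, Jon25Bii and Jon25Bi were direct neighbours on 2L, as were Jon65Aiv, Jon65Aiii, Jon65Aii and Jon65Ai on 3L and Jon66Ci and Jon66Cii on 3L. The remaining genes stood apart, with Jon44E and Ser8 on 2R, Ser12 on 2L, Jon74E on 3L, Jon99Ci and Jon99Fi on 3R, and Ser7 and Ser6 on X. In the RefSeq annotation 31 genes matched the same symbols, and 5 of them (deltaTry, gammaTry, Jon99Cii, Jon99Ciii and Jon99Fii) had no single-symbol probe set here. The probe sets of alphaTry, betaTry, Jon99Ci and Jon99Fi may also register these close copies, which was not tested.

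The 26 genes differed widely in how much their level moved over the 50 arrays. alphaTry stayed between 12.77 and 13.69, betaTry between 12.54 and 13.79, Jon65Aiv between 12.72 and 14.08 and Jon65Aiii between 12.21 and 13.72. These genes reached the highest levels of the 26, and whether the scale limits differences at such levels was not tested. Ser12 ran from 3.78 to 10.14, Jon99Ci from 7.11 to 12.03, Jon65Aii from 6.34 to 11.20 and Jon66Ci from 4.78 to 8.89. No group mean of any of the 26 lay under the plant control background, which was 3.86 to 4.49.

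More of the 26 genes passed between ages than in any comparison of gravity. Between 5 d and 20 d females of the centrifuge experiment, etaTry, kappaTry, lambdaTry, Ser12 and Ser6 rose in all 3 positions (2g, 1g-rot and 1g outside), while Jon65Aii, Jon65Ai, Jon74E, epsilonTry, zetaTry and betaTry fell in all 3. These 11 genes were 42.3% of the 26, and 7.07% of all probe sets passed in the same direction in all 3 positions. The 3 comparisons share no arrays. Between the ages 65.4% of the 26 did not overlap at 2g, 80.8% at 1g-rot and 96.2% outside. Of all probe sets 20.6%, 48.7% and 56.1% did not overlap, in the same order. At 2g 65.4% of the 26 passed, against 18.9% of all probe sets, with 8 that rose and 9 that fell where 10% and 8.86% of all probe sets did. In the 1g-rot flies 69.2% passed, against 18.5%, with 6 that rose and 12 that fell (8.22% and 10.2% of all probe sets). Outside the centrifuge 53.8% passed, against 11.1%, with 5 that rose and 9 that fell (4.98% and 6.14%). The median difference of the 26 was -0.30 at 2g, -0.55 at 1g-rot and -0.34 outside, and over all probe sets it was -0.02, 0.02 and 0.01. As whole flies were used, fewer gut cells and less RNA per gut cell cannot be told apart.

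**Figure D1:**
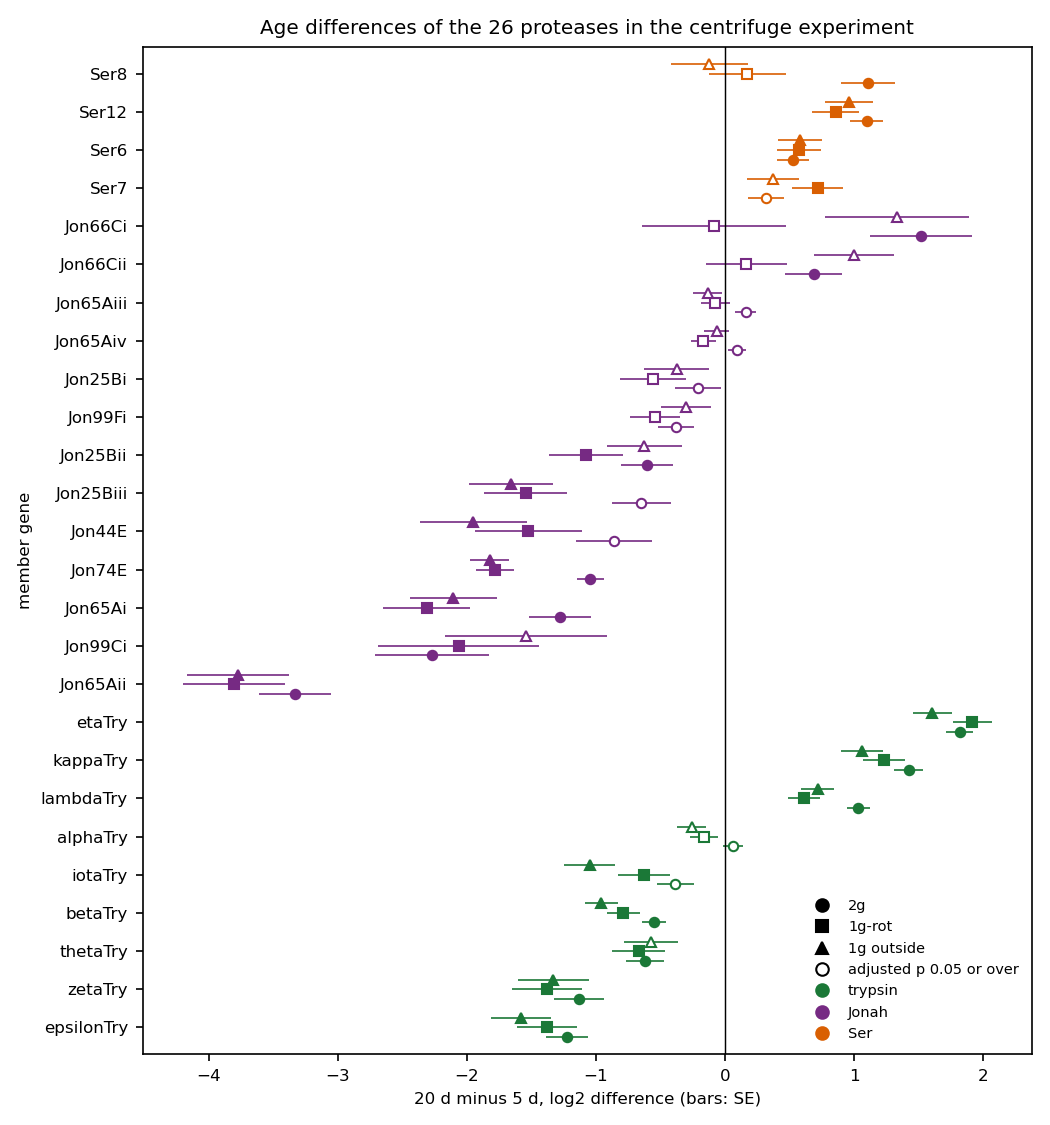
The horizontal axis gives the log2 difference of 20 d minus 5 d flies for the 26 genes on the vertical axis, at 2g (circles), 1g-rot (squares) and 1g outside (triangles), with bars for the SE and open symbols where the adjusted p was 0.05 or over. Jon65Aii lies farthest to the left at -3.33 to -3.81 and etaTry farthest to the right among genes called in all 3 positions, at 1.61 to 1.92.

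The trypsin genes split by direction. The level of etaTry at 5 d was 7.04, 7.07, 7.31 and 6.98 on the 2g arrays, 6.93 and 7.03 on the 1g-rot arrays, and 7.30 and 6.99 outside. At 20 d it was 8.80, 9.01, 8.82 and 9.04 at 2g, 8.95 and 8.84 at 1g-rot, and 8.89 and 8.61 outside. Every array of 20 d flies stood above every array of 5 d flies. The difference of etaTry was 1.82 at 2g (SE 0.11, 3.52-fold, adjusted p = 7.9e-09), 1.92 at 1g-rot (SE 0.15) and 1.61 outside (SE 0.15). kappaTry had 8.49, 8.24, 8.60 and 8.43 at 5 d and 9.86, 9.95, 9.66 and 9.97 at 20 d in the 2g groups, again without overlap. Its difference was 1.42 at 2g (SE 0.12, adjusted p = 2.6e-07), 1.23 at 1g-rot (SE 0.16) and 1.06 outside (SE 0.16). lambdaTry, the neighbour of kappaTry, rose by 1.03 at 2g, 0.61 at 1g-rot and 0.72 outside.

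Trypsin genes that fell with age lay among those that rose. epsilonTry differed by -1.23 (SE 0.16), -1.38 (SE 0.23) and -1.58 (SE 0.23) at 2g, 1g-rot and outside, and zetaTry by -1.13 (SE 0.19), -1.38 (SE 0.27) and -1.33 (SE 0.27) in the same order. betaTry fell by 0.55, 0.79 and 0.96 (SE 0.09, 0.13 and 0.13). thetaTry passed at 2g, with -0.62, and at 1g-rot, with -0.67, whereas outside it had -0.58 without passing. iotaTry passed at 1g-rot, with -0.63, and outside, with -1.05, and had -0.39 at 2g. alphaTry passed in none of the 3, with 0.06, -0.17 and -0.26. Calls in the small 1g groups depended on single arrays. Outside, that of zetaTry was lost without replicate 2 of the 20 d arrays (-1.09, adjusted p = 0.058, limma) or replicate 1 of the 5 d arrays (-1.22, adjusted p = 0.05). At 1g-rot, those of thetaTry and iotaTry were each lost in 3 of 4 fits that left out 1 array, with the smallest differences, -0.39 and -0.38, without replicate 1 of the 20 d arrays.

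Among the Jonah genes most differences were negative. Jon65Aii had levels of 10.74, 10.55, 11.05 and 10.88 at 5 d and 2g against 8.08, 7.35, 7.21 and 7.26 at 20 d and 2g. The same gene had 11.16 and 10.80 at 5 d against 6.34 and 8.01 at 20 d in 1g-rot flies, and 10.48 and 10.81 against 6.66 and 7.08 outside. The ages did not overlap in any position, and the fall was 10.1-fold at 2g (-3.33, SE 0.28, adjusted p = 3.5e-07), 14.0-fold at 1g-rot (-3.81, SE 0.39) and 13.7-fold outside (-3.78, SE 0.39).

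Jon65Ai, its direct neighbour, had 10.06, 9.68, 11.05 and 10.24 at 5 d and 9.14, 9.11, 8.86 and 8.80 at 20 d at 2g. At 1g-rot it had 10.81 and 10.40 at 5 d and 7.86 and 8.73 at 20 d, and outside 9.89 and 10.16 against 7.83 and 8.01. The arrays of 20 d flies were lower throughout. Jon65Ai fell by 1.28 at 2g (SE 0.24, adjusted p = 0.0011), by 2.31 at 1g-rot (SE 0.34) and by 2.11 outside (SE 0.34). Jon74E had 12.50, 12.62, 12.60 and 12.25 at 5 d and 11.44, 11.61, 11.54 and 11.20 at 20 d at 2g. It had 12.30 and 12.44 against 10.52 and 10.65 at 1g-rot, and 12.72 and 12.62 against 10.82 and 10.87 outside. The ages lay apart in every position, and Jon74E fell by 1.05 at 2g (SE 0.11), 1.79 at 1g-rot (SE 0.15) and 1.83 outside (SE 0.15).

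Other Jonah genes passed in some positions only. Jon99Ci had 10.16, 10.52, 11.19 and 10.33 at 5 d and 8.80, 8.56, 8.15 and 7.60 at 20 d at 2g, a fall by 2.27 (SE 0.44, adjusted p = 0.0016). At 1g-rot it had 10.62 on both arrays at 5 d, and the arrays of 20 d stood far apart, at 7.11 and 10. The difference of -2.07 there (adjusted p = 0.031) became -0.62 (adjusted p = 0.47) without replicate 1 of the 20 d arrays and was also lost without either 5 d array, and outside the difference was -1.55 without passing. Jon25Bii fell by 0.61 at 2g (adjusted p = 0.049) and by 1.08 at 1g-rot (adjusted p = 0.015), and these calls were lost in 7 of 8 and 3 of 4 fits that left out 1 array, with -0.41 at 1g-rot without replicate 1 of the 20 d arrays.

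Jon25Biii and Jon44E passed in both 1g groups. Jon25Biii had 12.58 and 12.33 at 5 d and 10.29 and 11.53 at 20 d at 1g-rot, and 12.07 and 12.31 against 10.26 and 10.80 outside. Jon44E had 10 and 10.02 at 5 d and 8.58 and 7.54 at 20 d outside. The arrays of 20 d flies were lower in each case. Jon25Biii fell by 1.55 at 1g-rot (SE 0.32) and 1.66 outside (SE 0.32), and Jon44E by 1.53 and 1.95 (SE 0.41 each). At 2g these genes had -0.65 and -0.86 and did not pass (adjusted p = 0.061 and adjusted p = 0.051). For 2g against outside, the difference between these changes is the interaction given further on. At 1g-rot the calls of both genes were lost without replicate 1 of the 20 d arrays (adjusted p = 0.069 and adjusted p = 0.15, limma), and that of Jon44E without replicate 1 of the 5 d arrays (adjusted p = 0.11). Outside, that of Jon25Biii was lost without replicate 1 of the 20 d arrays (adjusted p = 0.06) and that of Jon44E without replicate 2 (adjusted p = 0.078).

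Jon66Ci and Jon66Cii were the only Jonah genes that rose, and they passed at 2g alone. Jon66Ci had 6.82, 6.36, 7.43 and 5.62 at 5 d and 8.71, 7.71, 8.05 and 7.84 at 20 d at 2g, a rise of 1.52 (SE 0.40, adjusted p = 0.013). Its 20 d levels were 6.05 and 7.95 at 1g-rot and 7.25 and 7.88 outside, and its differences there were -0.09 (SE 0.56) and 1.33 (SE 0.56). Jon66Cii rose by 0.69 at 2g (SE 0.22, adjusted p = 0.04) with overlap between the ages, a call that was lost in 5 of 8 fits that left out 1 array. Outside it had 5.17 and 5.45 at 5 d and 5.96 and 6.66 at 20 d. Its differences over the 3 positions ran from 0.165 at 1g-rot to 1.00 outside, so the rise was not particular to 2g. Jon25Bi, Jon65Aiii, Jon65Aiv and Jon99Fi passed in none of the 3 positions, and the differences of Jon65Aiii and Jon65Aiv lay between -0.17 and 0.16 in each.

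The Ser genes leaned the other way. Ser12 had 8.64, 8.52, 9.08 and 8.78 at 5 d and 9.82, 9.64, 10.09 and 9.85 at 20 d at 2g, without overlap. It rose by 1.10 at 2g (SE 0.13, adjusted p = 1.6e-05), 0.86 at 1g-rot (SE 0.19) and 0.96 outside (SE 0.19), and the last of these reached adjusted p = 0.051 without replicate 1 of the 20 d arrays outside. Ser6 rose by 0.53, 0.57 and 0.58 in the same order, but its call at 1g-rot was lost with any of the 4 arrays left out and outside with 3 of the 4. Ser8 rose by 1.11 at 2g (SE 0.21) and Ser7 by 0.72 at 1g-rot (SE 0.20), the latter with 0.38 (adjusted p = 0.3) without replicate 1 of the 20 d 1g-rot arrays.

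**Figure D2:**
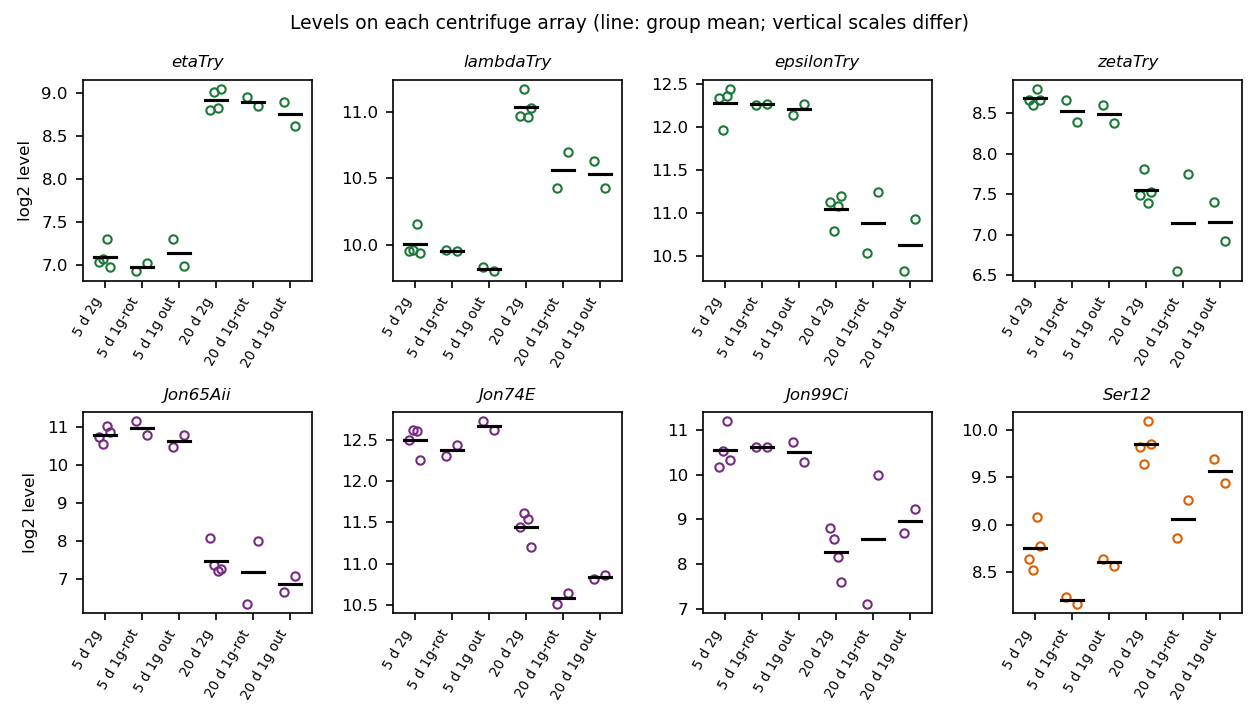
Each panel gives the log2 level of 1 gene on every array of the 6 centrifuge groups, with 1 point per array and a line for the group mean. For etaTry, lambdaTry, epsilonTry, zetaTry, Jon65Aii and Jon74E the 5 d and 20 d arrays do not overlap within a position, while the 2 arrays of Jon99Ci at 20 d in 1g-rot flies stand at 7.11 and 10.

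In the trypsin cluster neighbouring genes moved in both directions. With both 1g groups averaged, a comparison that contains the arrays of 1g-rot and outside again, 73.1% of the 26 passed, against 25.8% of all probe sets, with 6 that rose and 13 that fell (10.9% and 14.9% of all probe sets). Along arm 2R the differences of this comparison ran from 0.66 for lambdaTry and 1.15 for kappaTry to -1.36 for zetaTry, 1.76 for etaTry, -0.62 for thetaTry, -1.48 for epsilonTry and -0.88 for betaTry. zetaTry thus fell between 2 neighbours that rose. In the Jon65A cluster Jon65Aii fell by 3.79 (SE 0.28) and Jon65Ai by 2.21 (SE 0.24). The direct neighbours Jon65Aiii and Jon65Aiv, which were among the genes with the highest levels, did not pass. In the Jon25B cluster Jon25Biii fell by 1.60 and Jon25Bii by 0.85, and Jon25Bi did not pass.

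**Figure D3:**
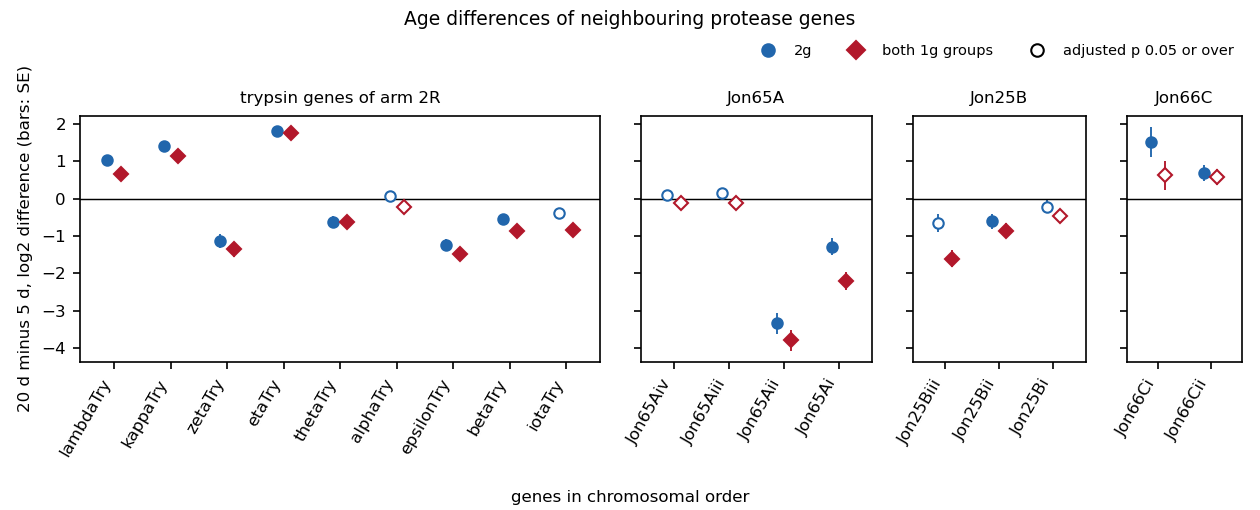
The vertical axis gives the log2 difference of 20 d minus 5 d flies, with bars for the SE, at 2g (circles) and in both 1g groups (diamonds), for genes in chromosomal order on the horizontal axis. Filled symbols passed the test, and in the trypsin cluster filled symbols above 0 (lambdaTry, kappaTry, etaTry) stand among filled symbols below 0 (zetaTry, thetaTry, epsilonTry, betaTry).

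Other digestive genes also moved in both directions with age. In both 1g groups LysX, a lysozyme gene, rose by 4.57 (SE 0.33), as 1 of 3 lysozyme genes measured. Of 12 lipase genes 3 rose and 4 fell, among them CG6283 at 2.79 and CG8093 at 2.62, and mag, the gene of the gut lipase magro, at -4.35 and CG17192 at -4.97. Of 25 other gut endopeptidase genes 7 rose and 4 fell, with CG17234 at 2.47 and CG11911 at -1.48. Of 13 carboxypeptidase genes 1 rose and 4 fell, with CG8560 at -2.99. Of 9 genes of the peritrophic matrix, the lining that keeps food off the gut cells, 5 rose and 1 fell, with Mur29B at 3.54, Muc55B at 1.96 and Peritrophin-15b at 1.73. Of 12 amylase and maltase genes 3 rose and 3 fell, with Mal-A1 at 1.19 and Mal-A3 at -1.40. The medians over these lists were 0.27, 0.14, 0.03, -0.24, 0.75 and -0.17 in the order given.

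Measures other than the proteases moved with age as well. The array median of the 12 gut cell markers was 6.02 to 6.6 at 5 d and 7.24 to 7.91 at 20 d, and their summed level 80.23 to 84.56 and 85.88 to 91.75. Of these markers 7 rose and 2 fell in both 1g groups, with AstC at 1.34, GATAe, a midgut transcription factor, at 1.14 and Alp4 at -0.81. Eggshell genes, markers of the ovary, had 0 that rose and 5 of 14 that fell, with a median of -1.95. Photoreceptor genes, markers of the eye, had 8 of 9 that fell at 2g, with a median of -1.29, and 3 that rose and 3 that fell in both 1g groups, with a median of -0.07. RNA quality, read from the eIF-4a control probe sets as 3' level minus 5' level, was 1.00 to 1.30 at 5 d, 0.99 to 1.26 at 20 d and 2g, and 0.62 to 0.81 at 20 d and 1g. Their part in the age differences was not tested.

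At 20 d, flies at 2g had higher levels of Jon74E and lambdaTry than flies at 1g. At both ages the names of the 2g arrays carried the letters V, X, Y and Z. Those of both 1g groups carried Q and R, so gravity and array letter cannot be told apart. Jon74E had 11.44, 11.61, 11.54 and 11.20 at 2g, 10.52 and 10.65 at 1g-rot, and 10.82 and 10.87 outside, and the 2g arrays lay above all the others. The difference was 0.60 against outside (SE 0.13, adjusted p = 0.039) and 0.86 against 1g-rot (SE 0.13, adjusted p = 0.0034). lambdaTry had 10.97, 11.17, 10.96 and 11.03 at 2g, 10.43 and 10.70 at 1g-rot, and 10.63 and 10.43 outside, again without overlap. It differed by 0.50 (SE 0.11, adjusted p = 0.045) and 0.47 (SE 0.11, adjusted p = 0.04). Ser12 had 8.86 and 9.26 at 1g-rot and 9.69 and 9.44 outside, and its 2g arrays lay 0.79 above 1g-rot (SE 0.16, adjusted p = 0.019) but 0.29 above outside, which did not pass.

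In these 2 comparisons, which share the 2g arrays, 2 and 3 of the 26 rose and 0 fell. Against outside this was 7.69% of the genes and 0.852% of all probe sets, of which 0.506% rose and 0.346% fell. Against 1g-rot it was 11.5% of the genes and 2.01% of all probe sets, of which 1.33% rose and 0.682% fell. Groups did not overlap for 46.2% of the 26 and 19.5% of all probe sets against outside, and for 23.1% and 22.4% against 1g-rot. With array medians set equal, 2 and 3 of the 26 again rose and 0 fell, while the share of higher values among the probe sets called against 1g-rot went from 66% to 76.2%. The median of the 26 was 0.32 against outside and 0.21 against 1g-rot, with 21 and 22 genes on the positive side, and over all probe sets it was 0 and -0.03. Without replicate 2 of the 1g-rot arrays the median against 1g-rot was 0.56. Of 25 other gut endopeptidase genes 2 rose in each, with CG10472 at 0.48 and CG31266 at 0.76 against outside and CG10472 at 0.39 and CG8329 at 1.08 against 1g-rot. The median of 14 eggshell genes was 0.46 against outside and 1.36 against 1g-rot, where Cp19 alone passed, at 5.77 (SE 1.22). Photoreceptor genes fell in 6 of 9 cases against outside and 7 of 9 against 1g-rot, with medians of -1.04 and -1.16. Their array medians were 7.14 to 7.62 at 2g and 7.64 to 8.14 over the 4 arrays at 1g, and their summed levels 66.62 to 71.57 and 77.35 to 81, without overlap. The eIF-4a values given above did not overlap between 2g and 1g at 20 d, whereas the GAPDH values did. The part of these in the result was not tested.

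These calls were close to the threshold. Against outside, both were lost when replicate 1, 2 or 3 of the 2g arrays or either outside array was left out, with 0 genes called and a lowest adjusted p between 0.068 and 0.21. Against 1g-rot, lambdaTry was lost with any of the 6 arrays left out, and only Jon74E remained without replicate 3 of the 2g arrays or without replicate 1 of 1g-rot, with Ser12 at 0.59 (adjusted p = 0.17) in the second case.

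At 5 d, none of the 26 passed at 2g against outside (0.0586% of all probe sets) or against 1g-rot (0.165%), and none between the 1g groups (0.0426%). At an unadjusted p under 0.05 in limma the counts were 1, 3 and 1 of 26, with 3.92%, 7.49% and 6.51% of all probe sets. With array medians set equal, the share of higher values among the few probe sets called against outside went from 18.2% to 30%. Ser8 had 7.66, 7.45, 8.38 and 7.97 at 2g, 8.55 and 8.95 at 1g-rot, and 8.46 and 8.54 outside, the 2g arrays being lower in each case. Its differences were -0.64 (SE 0.26) against outside and -0.89 (SE 0.26, adjusted p = 0.38) against 1g-rot. Groups lay apart for 7.69% of the 26 and 12.8% of all probe sets against outside, and for 26.9% and 14.3% against 1g-rot. Between 1g-rot and outside they lay apart for 53.8% and 33.9%. Ser12 differed by 0.55 (SE 0.16, adjusted p = 0.38) against 1g-rot.

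Whether the effect of 2g against outside changed from 5 d to 20 d was tested as an interaction. None of the 26 passed (0.0586% of all probe sets), and 8 had an unadjusted p under 0.05 in limma (7.59% of all probe sets). Of the 11 probe sets that passed 90.9% were positive, and 71.4% of 14 with array medians set equal. The largest value was that of Ser8, 1.23 (SE 0.37, adjusted p = 0.35), and the smallest p that of Jon74E, 0.78 (SE 0.18, adjusted p = 0.15). Between 1g-rot and outside at 20 d none passed either (0.00533% of all probe sets), with 1 of 26 at an unadjusted p under 0.05 in limma (4.36% of all probe sets), Ser12 at -0.51 (SE 0.19).

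In the magnet runs of 80 h, thetaTry and several Jonah genes were lower in the field than outside. Flies in the field were kept at 14C and those outside at 24C, so that field, position and temperature cannot be told apart. At 0g* 0 of the 26 rose and 5 fell, 19.2% of them against 0.927% of all probe sets, of which 0.41% rose and 0.517% fell. At 1g* 0 rose and 7 fell, 26.9% against 1.01% of all probe sets, of which 0.464% rose and 0.549% fell. Both comparisons share the 3 outside arrays. The median of the 26 was -0.58 at 0g* and -0.62 at 1g*, with 22 and 24 genes on the negative side, and over all probe sets it was 0.05 and 0.02. Among the 13 Jonah genes the medians were -0.96 and -0.92.

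thetaTry had 9.07 and 9.38 at 0g*, 9.99 and 9.99 at 1g*, and 11.35, 10.75 and 11.29 outside. Arrays in the field lay below those outside, by 1.91 at 0g* (difference -1.91, SE 0.19, 3.75-fold, adjusted p = 0.0059) and by 1.14 at 1g* (difference -1.14, SE 0.19, adjusted p = 0.033). The call at 0g* was kept in all 13 alternatives. That at 1g* was lost in 6 of 14, with the replicate number or the array letter as a block (-1.06, adjusted p = 0.18), without replicate 1 of the 1g* arrays, the only one of these with transcripts of both sexes (adjusted p = 0.12), and without replicate 1 or 3 of the outside arrays (adjusted p = 0.12 and 0.13). Not all alternatives were separate tests. Probe-set means and the omission of shared-hybridization probe sets could not change any call, as each gene stood on a single probe set. In these runs the blocks for replicate number and array letter gave the same fit. At 1g* the omission of arrays with both sexes was the same fit as that without replicate 1. The other 8 trypsin genes did not pass at either position.

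In the Jon25B cluster, Jon25Bi had 10.82 and 10.59 at 0g*, 11.09 and 10.49 at 1g*, and 12.63, 12.34 and 12.48 outside. Jon25Bii had 11.61 and 11.39 at 0g*, 12.08 and 11.57 at 1g*, and 13.34, 13.03 and 13.15 outside. For both genes the field arrays were well below the outside arrays. Jon25Bi fell by 1.78 at 0g* (SE 0.19, adjusted p = 0.0059) and 1.69 at 1g* (SE 0.19, adjusted p = 0.0076), and Jon25Bii by 1.67 (SE 0.18) and 1.35 (SE 0.18). The call of Jon25Bi at 0g* was lost in 1 of 13 alternatives, and those of Jon25Bii in 1 of 13 and 2 of 14.

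Jon65Aii had 9.26 and 9.04 at 0g*, 9.08 and 9.41 at 1g*, and 11.20, 10.60 and 10.95 outside, and fell by 1.77 and 1.67 (SE 0.19 each). Its calls were lost in 3 of 13 alternatives at 0g* and 2 of 14 at 1g*. Jon66Ci had 7.39 and 7.33 at 0g*, 6.49 and 6.14 at 1g*, and 8.74, 7.76 and 8.89 outside. It passed at 1g* only, with -2.15 (SE 0.30, adjusted p = 0.017), a call that was lost in 2 of 14 alternatives. Its direct comparison of 0g* with 1g* gave 1.05 (SE 0.33, adjusted p = 0.66). Jon66Cii had 5.39 and 5.30 at 0g*, 5.19 and 5.08 at 1g*, and 6.38, 6 and 6.68 outside. It passed at 0g* with -1.01 (SE 0.19, adjusted p = 0.049) and at 1g* with -1.22 (SE 0.19, adjusted p = 0.025), calls that were lost in 7 of 13 and 6 of 14 alternatives. Jon99Ci had 9.90 and 10.27 at 0g*, 9.65 and 9.93 at 1g*, and 11.29, 10.85 and 10.98 outside. It passed at 1g* with -1.25 (SE 0.18, adjusted p = 0.021), a call that was lost in 6 of 14 alternatives. No field array of these 4 genes reached an outside array. Between 0g* and outside 65.4% of the genes described here and 28.1% of all probe sets did not overlap. Between 1g* and outside the shares were 65.4% and 33.3%.

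**Figure D4:**
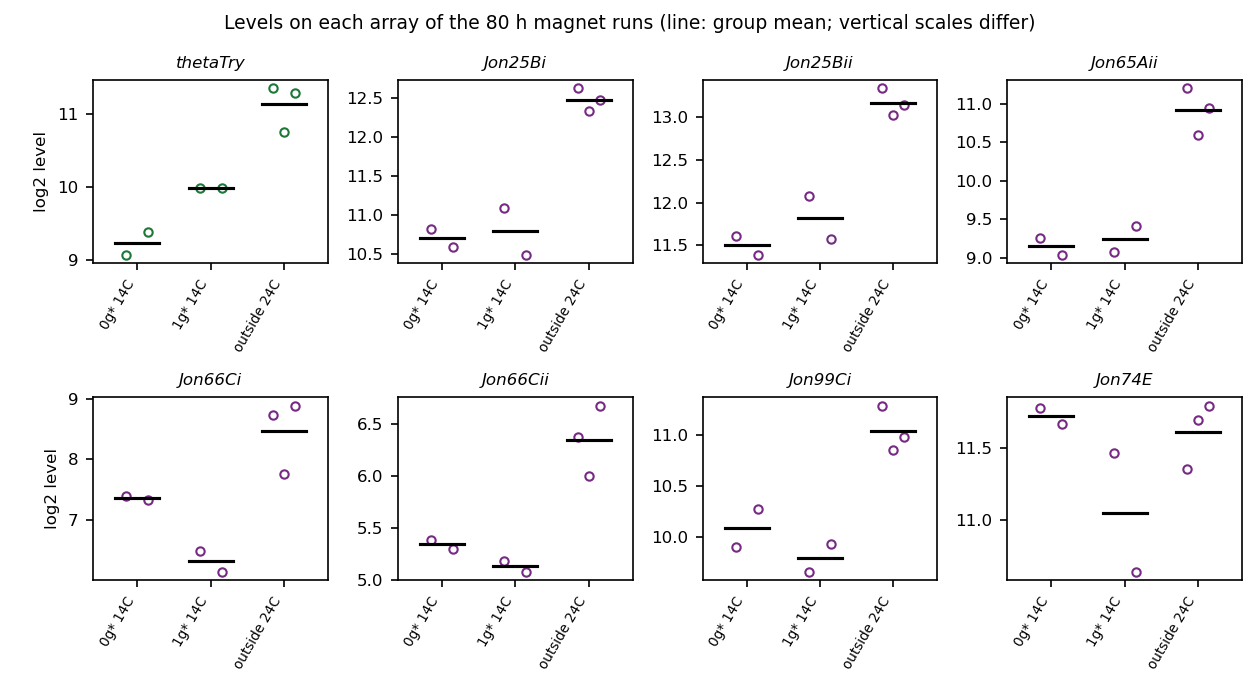
Each panel gives the log2 level of 1 gene on every array of the 80 h magnet runs at 0g*, 1g* and outside, with 1 point per array and a line for the group mean. In the panels of thetaTry, Jon25Bi, Jon25Bii, Jon65Aii, Jon66Ci, Jon66Cii and Jon99Ci all outside arrays lie above the arrays in the field, while Jon74E overlaps.

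The count of calls depended on single arrays. Without replicate 2 of the 0g* arrays 1 of the 26 passed at 0g*, and without replicate 1 of the 1g* arrays, which held transcripts of both sexes, 4 passed at 1g*. Without replicate 1 or replicate 3 of the outside arrays 2 passed at 1g*. With array medians set equal, 6 and 7 of the 26 fell and 0 rose, while the share of higher values among all probe sets called went from 44.3% to 32.3% at 0g* and from 45.8% to 28.6% at 1g*.

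Beside the proteases, CG17192, a lipase gene, fell at both positions (-1.09 and -1.24), as did CG8952, another gut endopeptidase gene (-1.28 and -1.06). Amyrel, an amylase-related gene, was the only digestive gene on these lists that rose, by 1.20 (SE 0.15) at 0g*. Gut cell markers had array medians of 5.73 to 5.90 in the field and 5.66 to 5.80 outside, and none of 12 passed. The eIF-4a difference was 2.43 to 3.34 on the 7 arrays of these runs and 0.62 to 1.88 on the 43 others, with 2.43 to 3.34 in the field and 2.61 to 2.92 outside. The GAPDH difference was 1.94 to 2.93 on these 7 arrays and 1.13 to 2.05 on the 43 others, with overlap. Between 0g* and 1g* none of the 26 passed (0.00533% of all probe sets), and 3 had an unadjusted p under 0.05 in limma (6.92% of all probe sets), including thetaTry at -0.77 (SE 0.21, adjusted p = 0.65) and Jon74E at 0.67 (SE 0.26, adjusted p = 0.7).

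Outside the magnet in the runs with no stated length, flies at 24C could be compared with flies at 14C. None of the 26 passed (0.48% of all probe sets), and 5 had an unadjusted p under 0.05 in limma (7.69% of all probe sets), all lower at 24C. lambdaTry had 7.32, 8.68 and 7.97 at 24C and 8.98 and 9.51 at 14C, a difference of -1.26 (SE 0.32, adjusted p = 0.16). Ser8 had 5.73, 6.46 and 6.68 at 24C and 7.08 and 7.61 at 14C, a difference of -1.06 (SE 0.43, adjusted p = 0.56). iotaTry had 5.81, 7.04 and 6.47 against 7.36 and 7.36, a difference of -0.92 (SE 0.29, adjusted p = 0.36). For these 3 genes no array at 24C reached an array at 14C. The temperatures did not overlap for 23.1% of the 26 and for 19.7% of all probe sets. The median of the 26 was -0.25, with 22 genes lower at 24C, and 0.01 over all probe sets. Photoreceptor genes, all 9 of which stood above the background, fell at 24C in 9 of 9 cases with a median of -2.67. Their array medians were 5.58 to 5.66 at 24C and 7.76 to 8.26 at 14C, and their summed levels 52.49 to 53.77 and 74.38 to 79.03, without overlap. Array medians of gut cell markers were 5.275 to 6.305 at 24C and 5.765 to 5.995 at 14C, and those of eggshell genes 8.555 to 12.57 and 11.57 to 11.905. The part of these lists in the protease differences was not tested. Without replicate 2 of the 24C arrays lambdaTry (-1.60, adjusted p = 0.011) and iotaTry (-1.22, adjusted p = 0.043) passed.

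Within the field of the magnet runs with no stated length the 26 genes gave no call. Of all probe sets 0.0213% passed for 0g* against 1g*, 0% for 2g* against 1g* and 0% for 0g* against 2g*. At an unadjusted p under 0.05 in limma the counts of the 26 were 1, 0 and 0 in this order, and 23%, 14.3% and 3.73% of all probe sets. Against outside at 14C, 0%, 0.0266% and 0% of all probe sets passed for 0g*, 1g* and 2g*. The unadjusted counts were 0, 2 and 1 of the 26, and 3.04%, 18.6% and 4.27% of all probe sets. Comparisons that name a common group share its arrays. Ser7, the clip domain protease, had 7.77, 7.32 and 6.87 at 0g*, 8.39, 7.88 and 8.10 at 1g*, and 7.24 and 7.51 outside. Its 1g* arrays were above both other groups, with -0.80 for 0g* minus 1g* (SE 0.23, adjusted p = 0.13) and 0.75 for 1g* minus outside (SE 0.26, adjusted p = 0.21). For 0g* against 1g* 7.69% of the 26 and 24.2% of all probe sets did not overlap, and for 1g* against outside 15.4% and 28.7%. The shares were 42.3% and 15.2% for 0g* against outside, and 26.9% and 15.1% for 2g* against outside. For 2g* against 1g* they were 7.69% and 15.3%, and for 0g* against 2g* 0% and 10.3%. Ser12 had 9.23, 8.27 and 7.60 at 0g*, 9.60, 8.35 and 10.14 at 1g*, and 8.46 and 7.85 outside, with overlap between the groups. It differed by -1 (SE 0.47, adjusted p = 0.22) and 1.21 (SE 0.52, adjusted p = 0.25). Without replicate 2 of the 1g* arrays Ser7 and Ser12 passed for 0g* minus 1g* (-0.93 and -1.50) and Ser12 for 1g* minus outside (1.72). In these fits 12.6% and 6.45% of all probe sets passed. The 1g* arrays that remained were replicate 1, which held transcripts of both sexes (accessory gland median 8.51, eggshell median 6.83), and replicate 3, with an eggshell median of 6.395, where replicate 2 had 11.6. Their part in these calls was not tested.

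Between the arrays of the RPM labelled males and labelled females, whose sex transcripts ran opposite to the labels, Ser12 differed most. Outside the machine Ser12 had 3.78, 4.14 and 4.42 on arrays labelled females and 8.18, 8.11 and 8.26 on arrays labelled males. At 0g it had 3.99, 5.96 and 3.89 against 8.17, 8.24, 8.35 and 8.80. No arrays overlapped, and the differences were 4.07 (SE 0.41, adjusted p = 1.3e-06) and 3.78 (SE 0.39, adjusted p = 2.1e-06). Of the 6 arrays labelled females 1 lay under its own plant control background, and on the 44 other arrays of the series Ser12 had 7.17 to 10.14. Whether the gut or another tissue made the Ser12 transcripts was not tested.

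Jon99Fi had 9.73, 9.10 and 10.43 on arrays labelled females outside and 12.10, 12 and 11.80 on arrays labelled males, a difference of 2.21 (SE 0.36, adjusted p = 1e-04). At 0g it had 9.59, 11.10 and 10.59 against 11.54, 12.06, 12.10 and 12.10, a difference of 1.52 (SE 0.33, adjusted p = 0.0015). Jon65Ai had 8.36, 7.75 and 8.09 against 9.62, 9.15 and 9.36, a difference of 1.31 (SE 0.23). Both genes were higher on every array labelled males outside the machine.

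Ser7 ran the other way, with 8.74, 8.84 and 8.92 on arrays labelled females and 7.73, 7.66 and 7.45 on arrays labelled males, a difference of -1.22 (SE 0.15). At 0g it had 8.88, 8.70 and 9.11 against 8.02, 7.90, 7.82 and 7.46, a difference of -1.10 (SE 0.14). Jon65Aii was higher on arrays labelled males, with 7.90, 8.70 and 8.81 against 9.09, 9.86, 9.66 and 9.42 at 0g, and differed by 1.04 there and by 1.07 outside. Jon44E had 8.62, 8.76 and 9.09 against 9.40, 9.93, 9.60 and 9.71 at 0g, a difference of 0.84 (SE 0.14). Ser6 had 5.63, 5.32 and 5.41 against 6.23, 5.99, 6.27 and 6.23 at 0g, a difference of 0.73 (SE 0.15). Jon25Biii had 11.81, 11.73 and 11.75 against 12.59, 12.78 and 12.56 outside, a difference of 0.88 (SE 0.16). None of these groups overlapped. Such separation was common, as outside the machine the labels did not overlap for 57.7% of the genes described here and 62.5% of all probe sets. At 0g the shares were 46.2% and 50.6%.

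**Figure D5:**
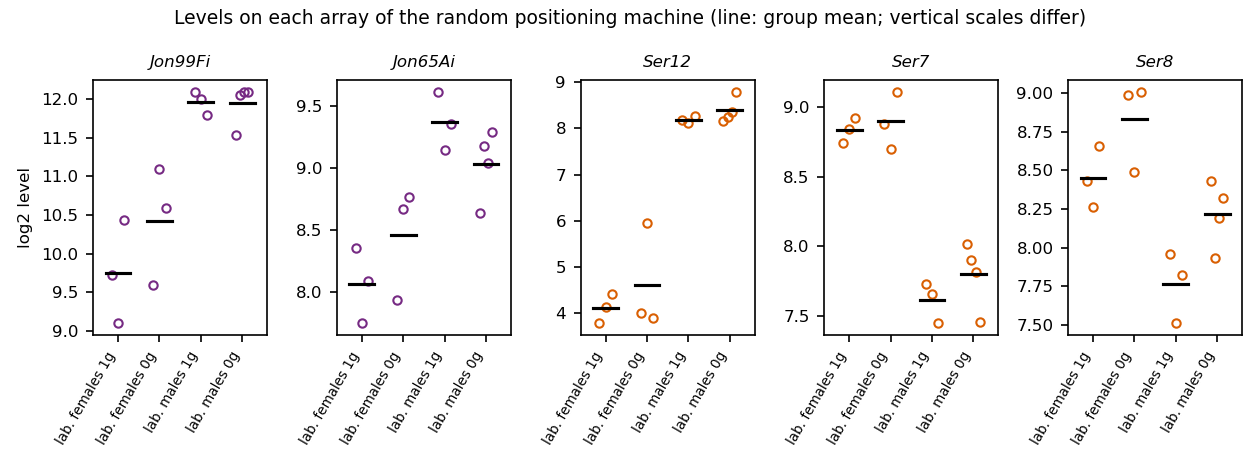
Each panel gives the log2 level of 1 gene on every RPM array, by label (lab. females, lab. males) and gravity, with 1 point per array and a line for the group mean. Ser12 stands at 3.78 to 5.96 on arrays labelled females and at 8.11 to 8.80 on arrays labelled males, and Ser7 and Ser8 are lower on the latter outside the machine.

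As a group the 26 genes did not stand out between the labels. Outside 38.5% of them passed, against 52.4% of all probe sets, with 8 higher and 2 lower on arrays labelled males where 29.8% and 22.7% of all probe sets were. At 0g 50% passed, against 51.4%, with 10 higher and 3 lower (30% and 21.4% of all probe sets). The medians of the 26 were 0.22 and 0.30, and those of all probe sets 0.06 and 0.13. Of the 13 RPM arrays 4 held transcripts of both sexes, and without them the median of the 26 at 0g was 0.60. Photoreceptor genes were lower on arrays labelled males in 9 of 9 cases, outside and at 0g, with medians of -1.13 and -0.91, whose part was not tested. Array medians differed between the labels by -0.37 outside and -0.39 at 0g. With medians set equal, the medians of the 26 were 0.58 and 0.68, and 16 of the 26 were higher and 1 lower outside and 17 and 1 at 0g, with 74.4% and 83% of all probe sets called. Of all probe sets called, the share that was higher went from 56.8% to 78.9% outside and from 58.3% to 83.2% at 0g. kappaTry, at -0.33 at 0g (adjusted p = 0.035), had 0.06 with medians set equal.

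Some serine protease genes outside the 26 also differed between the labels. CG31681 differed by 5.49 (SE 0.62) outside and Send1, an endopeptidase of the spermatheca, the sperm store of females, by 4.79 (SE 0.54). Sems, a seminal fluid protease gene, differed by -5.05 (SE 0.20) and ndl, a protease of the eggshell, by 3.55 (SE 0.32). Of 25 other gut endopeptidase genes 8 were higher and 4 lower, and of 12 amylase and maltase genes 0 were higher and 6 lower, including Mal-A7 at -1.76 and Mal-A8 at -1.63.

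Rotation in the RPM gave no call among the 26. On arrays labelled females 0% of all probe sets passed for 0g minus 1g and on arrays labelled males 0.00533%, and the counts of the 26 at an unadjusted p under 0.05 in limma were 1 and 2, with 6.49% and 5.74% of all probe sets. lambdaTry was among them in both, at 0.35 (SE 0.12, adjusted p = 0.77) and 0.32 (SE 0.11, adjusted p = 0.78), with all 0g arrays above all 1g arrays of the same label. On arrays labelled females 3.85% of the 26 and 12.5% of all probe sets did not overlap, and on arrays labelled males 15.4% and 6.93%. Jon99Fi had the largest difference on arrays labelled females, 0.67 (adjusted p = 0.79), and Ser8 on arrays labelled males, 0.45 (SE 0.17, adjusted p = 0.78). Ser8 had 7.96, 7.51 and 7.82 at 1g and 8.43, 7.93, 8.19 and 8.32 at 0g there, with overlap. The difference of the 0g effect between the labels passed for none of the 26 (0% of all probe sets), with 1 at an unadjusted p under 0.05 in limma (9.89% of all probe sets), Jon65Ai at -0.73 (SE 0.32, adjusted p = 0.5).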

How the data were processed

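RNA of adult flies had been labelled with biotin and hybridised to Affymetrix Drosophila 2.0 arrays. The deposited values were log2 intensities that the authors had computed with RMA, given with 2 decimals, and the submitters' processing notes also name limma. For both, the version was not given in the sources used here. Values covered 18952 probe sets on 50 arrays, with array medians of 5.23 to 5.85, and 183 control probe sets were left out. Gene symbols came from the platform annotation, with 13647 probe sets of 1 symbol, 402 of several and 4720 of none, and all 26 genes matched the RefSeq table (Release 6 assembly) by gene identifier, which was used for chromosome arms and neighbours. Arrays were grouped by their titles, and the highest correlation between 2 arrays was 0.9963.

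Group means were fitted per facility with moderated variances (limma 3.58.1, R 4.3.3), the magnet runs of 80 h apart from those with no stated length, and p values were adjusted over all 18769 probe sets by the method of Benjamini and Hochberg. On each array the background was set at the level that 95% of the 50 plant controls did not exceed. The number of arrays limits the precision. The procedure was tested on simulated arrays of the same design.

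Values on every array are given for the genes that passed in a comparison, at most the 6 with the largest difference, and where none passed for some of the 3 with the largest difference. The genes of the other lists that are named are among the 4 with the smallest p in their list. Values of other genes of the 26 were chosen after they had been seen. The genes and lists were chosen with earlier results of these data known. Alternatives were median centring, repeated quantile normalization, a filter on dim probe sets, only the compared groups in the fit, a block for the replicate number or for the letter of the array name, both 1g groups as the reference, the other temperature label, no arrays with transcripts of both sexes, probe-set means, probe sets without a shared-hybridization suffix, and each replicate left out.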

Additional observations from a re-analysis of the deposited data

Results flagged for a closer look

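In groups of 4 arrays, the gap from the highest or lowest value of a gene to the next was divided by the range of all 4 (Dixon's criterion). Chance passes this in about 1 of 20 groups, and 7 of 78 groups passed. On arrays labelled males at 0g in the random positioning machine, alphaTry was 13.22 on replicate 1 (13.35 to 13.37 on the others), Jon99Fi 11.54 on the same array (12.06 to 12.10), which held transcripts of both sexes, and Ser6 5.99 on replicate 2 (6.23 to 6.27). In the centrifuge at 5 d and 2g, Jon44E was 10.84 on replicate 3 (9.77 to 9.90) and lambdaTry 10.16 on the same array (9.94 to 9.96). At 20 d and 2g, Jon65Aii was 8.08 on replicate 1 (7.21 to 7.35) and Jon65Aiv 14.08 on replicate 3 (13.95 to 13.97).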

How the results depend on the processing

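Of 108 calls of single genes over all comparisons, 65 remained in every alternative tried. The count of genes called between the RPM labels outside the machine went from 10 to 17 with array medians set equal and to 16 when only the compared groups were fitted. In the 80 h magnet runs the counts of 5 at 0g* and 7 at 1g* went to 3 and 3 with the replicate number as a block and to 3 and 3 with the array letter as a block, and at 1g* to 4 without arrays of both sexes. At 20 d, 2g against outside went from 2 to 0 under repeated quantile normalization, to 1 other gene with only the compared groups (0 of the 2 shared) and to 1 with the replicate block, and 2g against 1g-rot from 3 to 0 with only the compared groups. The age count at 1g-rot went from 18 to 11 with only the compared groups. With 1 array left out, the counts ranged from 0 to 2 (magnet 0g* against 1g*), 0 to 1 (1g* against outside), 0 to 2 (24C against 14C), 1 to 7 and 2 to 8 (80 h, 0g* and 1g* against outside), 0 to 2 and 1 to 4 (2g at 20 d against outside and 1g-rot) and 10 to 19 (age at 1g-rot, 10 without replicate 1 at 20 d and 11 without replicate 1 at 5 d). The median age difference at 1g-rot was -0.22 without replicate 1 at 20 d and -0.89 without replicate 2, and with both 1g groups -0.23 and -0.66. Differences changed sign for Ser12 at 0g on arrays labelled females (-0.17 to 0.86, the lowest without 0g replicate 2), kappaTry between the RPM labels at 0g (0.057 with medians set equal), Jon65Ai at 2g against outside at 5 d (-0.032 without 2g replicate 3 to 0.425, -0.058 against both 1g groups), Jon66Ci in the same comparison (-0.033 without outside replicate 1 to 0.677, -0.10 against both 1g groups) and Jon66Ci at 1g-rot against outside at 20 d (-1.515 to 0.385, the highest without 1g-rot replicate 1). The cause of these changes was not tested. Whether same-numbered replicates paired the samples cannot be decided from so few arrays, and no pairing entered the main fits. No comparison with 3 or 4 pairs had every correlation of deviations above 0.1 (lowest -0.16). Yet 0g* and 1g* of the magnet runs with no stated length had 0.469, 0.377 and -0.066 for replicates 1, 2 and 3. The block changed no other count by over 1.5 times. Probe-set means and the omission of shared-hybridization probe sets left the values as they were. The array letter could not be fitted as a block for 2g against 1g in the centrifuge or between the RPM labels. A group left with 1 array was assumed to have the spread of the rest.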
